A study of Mus musculus with 3 samples.

Results

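Bone morphogenetic protein (BMP) signalling was followed through 9 genes, the ligands Bmp2, Bmp4, Bmp5, Bmp7 and Gdf5, the antagonist Nog, and the receptors Bmpr1a, Bmpr1b and Bmpr2, in ChIP-seq peak lists of RNA polymerase II (RNAP2) and of Med12, a subunit of the Mediator complex. All of them were taken from the 22367 protein-coding genes of the annotation by their names, and not by any measured value. Every peak that overlapped one of these genes or came within 200 kb of its start was collected, which gave 85 of the 20479 RNAP2 peaks and 33 of the 10634 Med12 peaks. The chromatin came from pooled distal forelimbs, the presumptive hands with their tissues mixed, of mouse embryos at E12.5, and the labels state no treatment, mutation or strain. The text that accompanies the series gives a stage 1 day earlier, and the stage of the sample labels is used here. There was 1 library for each antibody and 1 input library, for which no peak list was analysed here. None of the values below therefore has a replicate error or a test, and differences between genes are descriptions of these libraries.

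BMPs are secreted ligands of the transforming growth factor β superfamily. They bind pairs of type I receptors (Bmpr1a, Bmpr1b) and type II receptors (Bmpr2), whose kinase activity is passed to Smad proteins that enter the nucleus, and extracellular antagonists such as noggin keep the ligands from their receptors. In the developing hand the pathway is known for its part in the condensation of digit cartilage, in the death of cells between the digits and, through Gdf5, in the making of joints.

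A peak was called at a start when it came within 1 kb of the most upstream annotated start of the gene, and distal when it came within 1 kb of no annotated transcript start at all. By this division, 7 of the 85 RNAP2 peaks lay at starts of the BMP genes, 57 were distal and 21 lay at other transcript starts. Of the 33 Med12 peaks, 2 lay at starts of the BMP genes, 29 were distal and 2 lay at other starts. Each peak carries the score of the authors' peak caller, the negative log10 of the p-value multiplied by 10, which grows with depth and was not compared between the lists. Positions are in mm9, counted from 1.

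The ligand genes span 133377895 to 133388621 (Bmp2), 172693513 to 172765822 (Bmp7) and 155766759 to 155771103 (Gdf5) on chromosome 2, 47003195 to 47010344 on chromosome 14 (Bmp4) and 75623171 to 75748117 on chromosome 9 (Bmp5). Nog lies on chromosome 11 from 89161952 to 89163873. The receptor genes span 35223920 to 35316527 on chromosome 14 (Bmpr1a), 141500100 to 141832389 on chromosome 3 (Bmpr1b) and 59821481 to 59927703 on chromosome 1 (Bmpr2). Bmp2, Bmp5 and Bmpr2 are transcribed from the plus strand and the others from the minus strand.

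The sites that carry most of what follows are those where a distal RNAP2 peak overlapped a distal Med12 peak, since RNAP2 and Mediator are found together at active enhancers. The mm9 reference sequence is given for the site with both proteins that has the highest Med12 score of each gene, distal or at the start, as 300 bases centred on the overlap of the peaks, plus strand, 5′ to 3′. At Gdf5 and Bmpr1b, the genes with Med12 at the start as well, this was a distal site. The site 14.4 kb downstream of the Bmp2 start is outside this rule and was chosen after its values were seen. Capitals mark matches, on either strand, to 5 short motifs searched for: TAATTA (homeodomain core), TTTATTG (posterior Hox), GGCGCC (BMP-responsive Smad element), CAGCTG (E-box) and TGANTCA (AP-1).
Bmp2, 114.6 kb downstream of the start, chr2:133492384-133492683: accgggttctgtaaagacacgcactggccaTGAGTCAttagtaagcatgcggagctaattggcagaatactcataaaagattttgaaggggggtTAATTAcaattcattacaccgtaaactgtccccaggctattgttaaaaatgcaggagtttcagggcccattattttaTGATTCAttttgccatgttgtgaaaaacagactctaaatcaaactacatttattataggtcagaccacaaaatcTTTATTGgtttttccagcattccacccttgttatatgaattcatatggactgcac
Bmp2, 14.4 kb downstream of the start, chr2:133392176-133392475: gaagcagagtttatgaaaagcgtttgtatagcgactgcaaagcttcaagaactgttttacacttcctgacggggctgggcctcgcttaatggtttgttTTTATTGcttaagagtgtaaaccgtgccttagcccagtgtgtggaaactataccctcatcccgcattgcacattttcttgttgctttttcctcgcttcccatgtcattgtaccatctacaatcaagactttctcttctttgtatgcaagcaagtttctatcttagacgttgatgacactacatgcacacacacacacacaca
Bmp5, 95.1 kb downstream of the start, chr9:75718133-75718432: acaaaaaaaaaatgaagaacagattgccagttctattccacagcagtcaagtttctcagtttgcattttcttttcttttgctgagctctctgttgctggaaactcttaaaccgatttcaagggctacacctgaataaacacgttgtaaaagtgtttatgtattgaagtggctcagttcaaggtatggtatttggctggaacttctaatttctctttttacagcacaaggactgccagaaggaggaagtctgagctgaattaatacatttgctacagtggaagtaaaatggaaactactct
Bmp7, 6.3 kb downstream of the start, chr2:172759397-172759696: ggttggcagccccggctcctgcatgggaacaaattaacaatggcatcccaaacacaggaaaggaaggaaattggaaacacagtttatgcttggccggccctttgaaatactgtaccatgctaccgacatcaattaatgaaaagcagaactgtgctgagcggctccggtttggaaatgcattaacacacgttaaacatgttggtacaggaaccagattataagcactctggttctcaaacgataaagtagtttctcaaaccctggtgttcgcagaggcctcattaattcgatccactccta
Gdf5, 82.1 kb downstream of the start, chr2:155688866-155689165: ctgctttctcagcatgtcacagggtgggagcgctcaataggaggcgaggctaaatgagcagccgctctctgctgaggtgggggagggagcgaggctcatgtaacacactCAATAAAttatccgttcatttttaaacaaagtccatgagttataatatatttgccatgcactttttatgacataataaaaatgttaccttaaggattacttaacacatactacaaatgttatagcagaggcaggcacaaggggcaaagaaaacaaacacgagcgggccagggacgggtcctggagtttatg
Nog, 119 kb upstream of the start, chr11:89282723-89283022: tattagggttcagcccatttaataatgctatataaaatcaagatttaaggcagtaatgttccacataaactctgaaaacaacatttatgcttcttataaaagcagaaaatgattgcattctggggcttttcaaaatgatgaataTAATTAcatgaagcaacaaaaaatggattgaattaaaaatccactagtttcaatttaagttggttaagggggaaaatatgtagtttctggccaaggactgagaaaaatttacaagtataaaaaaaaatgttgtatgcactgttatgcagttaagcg
Bmpr1a, 46.6 kb upstream of the start, chr14:35362973-35363272: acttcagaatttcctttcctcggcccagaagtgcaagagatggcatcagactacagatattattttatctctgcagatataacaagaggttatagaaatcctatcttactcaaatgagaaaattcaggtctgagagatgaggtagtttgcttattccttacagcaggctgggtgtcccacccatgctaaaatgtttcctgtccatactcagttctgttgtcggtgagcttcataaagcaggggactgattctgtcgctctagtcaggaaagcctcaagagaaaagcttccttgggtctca
Bmpr1b, 69.2 kb upstream of the start, chr3:141901486-141901785: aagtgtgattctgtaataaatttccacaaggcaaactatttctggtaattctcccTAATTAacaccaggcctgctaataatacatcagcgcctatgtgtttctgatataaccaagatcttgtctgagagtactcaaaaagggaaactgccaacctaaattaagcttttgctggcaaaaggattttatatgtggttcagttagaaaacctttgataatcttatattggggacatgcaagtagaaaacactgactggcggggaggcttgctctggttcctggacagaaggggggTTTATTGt

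Of these 8 sequences, 4 held TTTATTG or its reverse complement, namely both sites near Bmp2 and those of Gdf5 and Bmpr1b. TAATTA was found in 3, at the distant site of Bmp2 and at those of Nog and Bmpr1b. The distant Bmp2 site also held TGANTCA in 2 places, and no other sequence held it. GGCGCC and CAGCTG were found in none of the 8. The sites of Bmp5, Bmp7 and Bmpr1a held none of the motifs. No matches overlapped each other. The Bmp2 site chosen after its values were seen is not among the distal sites with both proteins, and without it TTTATTG and TAATTA were each present at 3 of the 7 sites. Among the 300 bases at all 2666 distal sites with both proteins in the genome, TAATTA was present at 15.8%, TTTATTG at 15.9%, GGCGCC at 2.96%, CAGCTG at 20.5% and TGANTCA at 8.06%, and at least 1 of the motifs at 49.8%. The median GC content of the 7 sites taken by rule was 39.7%, beside 43.0% for all such sites. The 7 were taken for the highest Med12 score of each gene, and the sites of the whole genome were not. Differences between the 2 sets were not tested.

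The starts of the BMP genes were examined first, to ask which of them carry the polymerase. An RNAP2 peak lay at the start of 7 of the 9 genes, namely Bmp2, Bmp7, Gdf5, Nog and all 3 receptor genes. For comparison, 40.0% of all protein-coding genes had one. Med12 was found at the starts of Gdf5 and Bmpr1b, 2 of the 9, where 8.20% of coding genes had a Med12 peak and 7.58% had peaks of both lists. The starts of Bmp4 and Bmp5 had neither.

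**Figure D1:**
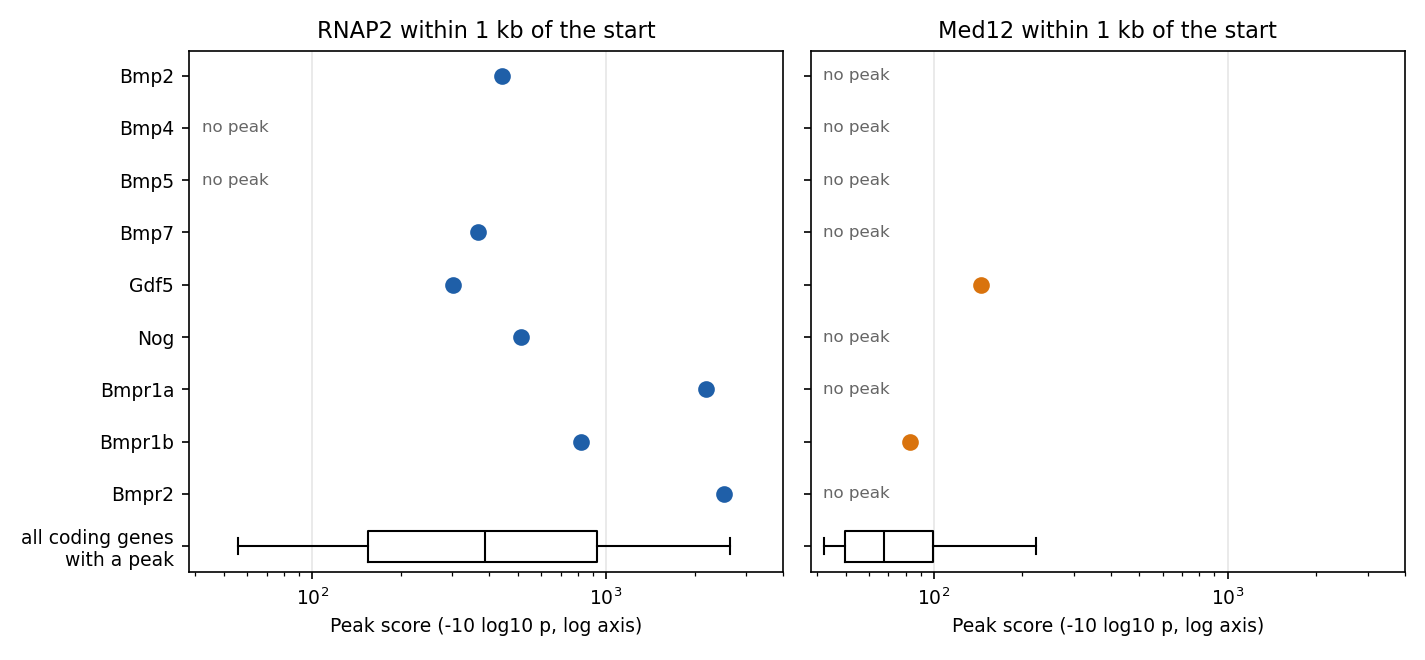
Score of the highest peak within 1 kb of each gene start, for RNAP2 (left) and Med12 (right), on log axes. The boxes show all coding genes with a peak at the start (median and quartiles, whiskers at the 5th and 95th percentiles). Bmpr1a and Bmpr2 lie near the upper whisker for RNAP2, Bmp4 and Bmp5 have no peak, and only Gdf5 and Bmpr1b among the 9 have a Med12 peak.

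The receptor genes had the highest RNAP2 scores at their starts. Bmpr2, which encodes the type II receptor, had a peak of score 2524 from 59818904 to 59822294. Bmpr1a, which encodes a type I receptor found in many tissues, had one of score 2190 from 35314006 to 35317057. Of the 8953 coding genes with an RNAP2 peak at the start, 5.57% reached the score of Bmpr2 and 7.62% that of Bmpr1a. The peak of Bmpr2 lay mostly before the gene, from 2577 bp upstream to 813 bp downstream of the start, whereas that of Bmpr1a reached 530 bp upstream and 2521 bp downstream and also covered the antisense transcript Gm17110. Med12 was absent from the list at both starts, with its closest peaks 79337 bp from that of Bmpr2 and 46485 bp from that of Bmpr1a. For Bmpr1b, the type I receptor gene with a known requirement in digit cartilage, the RNAP2 peak ran from 141830274 to 141832935 and its score of 823 was reached by 28.2% of coding starts with a peak. A Med12 peak with a score of 83.0 lay on the same start, from 141831968 to 141832800, with 411 bp before the start and 421 bp after it.

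Among the ligands, the start scores lay around the median of 385.94 for coding genes with a peak. At Bmp2, RNAP2 reached a score of 444 in a peak from 133377501 to 133381227, which extended 3332 bp into the gene. The peak of Bmp7 ran from 172763939 to 172766768 and scored 366. These scores were reached by 45.9% and 51.6% of coding starts with a peak. Gdf5, a joint marker, had the lowest RNAP2 score of the 7, 301 for a peak from 155770500 to 155771725, but it was accompanied by a Med12 peak from 155770640 to 155771970 that scored 144. Among coding genes with Med12 at the start, 12.9% reached this score and 36.1% reached that of Bmpr1b. The nearest Med12 peaks to the starts of Bmp2 and Bmp7 were 13614 bp and 5837 bp away.

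Nog, which encodes the antagonist noggin, is a short gene of 1922 bp, and its whole length lay under a single RNAP2 peak of score 513 from 89161818 to 89165392. A second RNAP2 peak, of score 179 from 89159229 to 89161816, followed beyond the end of the gene after a gap of 1 bp, so that the 2 peaks together spanned 6164 bp. The antisense transcript Gm2018 starts 164 bp upstream of Nog under the same peak, and the lists do not tell the strands apart. No Med12 peak lay closer to the Nog start than 78747 bp.

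Bmp4 differed from Bmp2 and Bmp7 in where RNAP2 was found. Its annotated start at 47010344 on chromosome 14 had no peak within 1 kb, and the nearest RNAP2 peak began 2246 bp into the gene. This peak, from 47006310 to 47008098, had a score of 596, and a second one, from 47004305 to 47006192, had a score of 385, with 117 bp between them. Together they covered 51.4% of the gene. The first also covers the start of the antisense transcript Gm15222 at 47007194, so that it was counted at a transcript start and not as distal. The Med12 list had no peak in the whole window of Bmp4, and the nearest one lay 214319 bp from the start. With 5 kb allowed on each side of a start, Bmp4 was counted with RNAP2 at the start and Bmp5 was still not. Bmp5, on chromosome 9 from 75623171, had its nearest RNAP2 peak 55310 bp upstream and its nearest Med12 peak 24334 bp downstream of the start, with scores of 62.9 and 40.1. The lists hold only sites with a score of at least 40, so weaker binding at these starts would not be seen.

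The base composition of the starts was compared with these peaks. Over 1001 bases centred on the start, the ratio of observed to expected CpG dinucleotides was 0.26 for Bmp5 and 0.44 for Bmp4, the genes without RNAP2 at the start, and 0.64 to 1.08 for 6 of the genes with it. Gdf5 departed from this, with a ratio of 0.32 and peaks of both lists at its start. Across all coding genes the median ratio was 0.55. An RNAP2 peak lay at 74.1% of the 10205 starts with a ratio of at least 0.6 and at 11.5% of the 12162 starts below it.

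Within the genes, RNAP2 peaks covered 45.9% of Bmp2, 52.2% of Gdf5, 9.22% of Bmp7 and 0.963% of Bmp5 among the ligands. For the longer receptor genes the share was 11.7% in Bmpr1a, 7.41% in Bmpr2 and 6.94% in Bmpr1b. The median was 4.53% over the coding genes that had any RNAP2 peak. It was not matched for gene length, and Bmp2 and Gdf5 are short, at 10727 bp and 4345 bp. Bmpr1b had 17 RNAP2 peaks in the gene away from its start, with scores from 40.4 to 94.1 and a median of 55.5, spread over a gene of 332290 bp. In Bmpr1a there were 5 such peaks, from 48.3 to 213, and in Bmpr2 there were 4, from 44.2 to 123. Per length, this came to 5.12 peaks per 100 kb in Bmpr1b, 5.40 in Bmpr1a and 3.77 in Bmpr2, so that the higher count of Bmpr1b went with its length. All RNAP2 peaks inside Bmpr1b and away from its start fell below a score of 100. Of the 6 annotated transcripts of Bmpr1b, those starting at 141832389 and 141832177 had both proteins within 1 kb. The start of Bmpr1b-001 at 141645228 had a Med12 peak alone, with a score of 52.6. The 3 transcripts that start at 141594472 or 141594487 had an RNAP2 peak alone, with a score of 48.6.

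**Figure D2:**
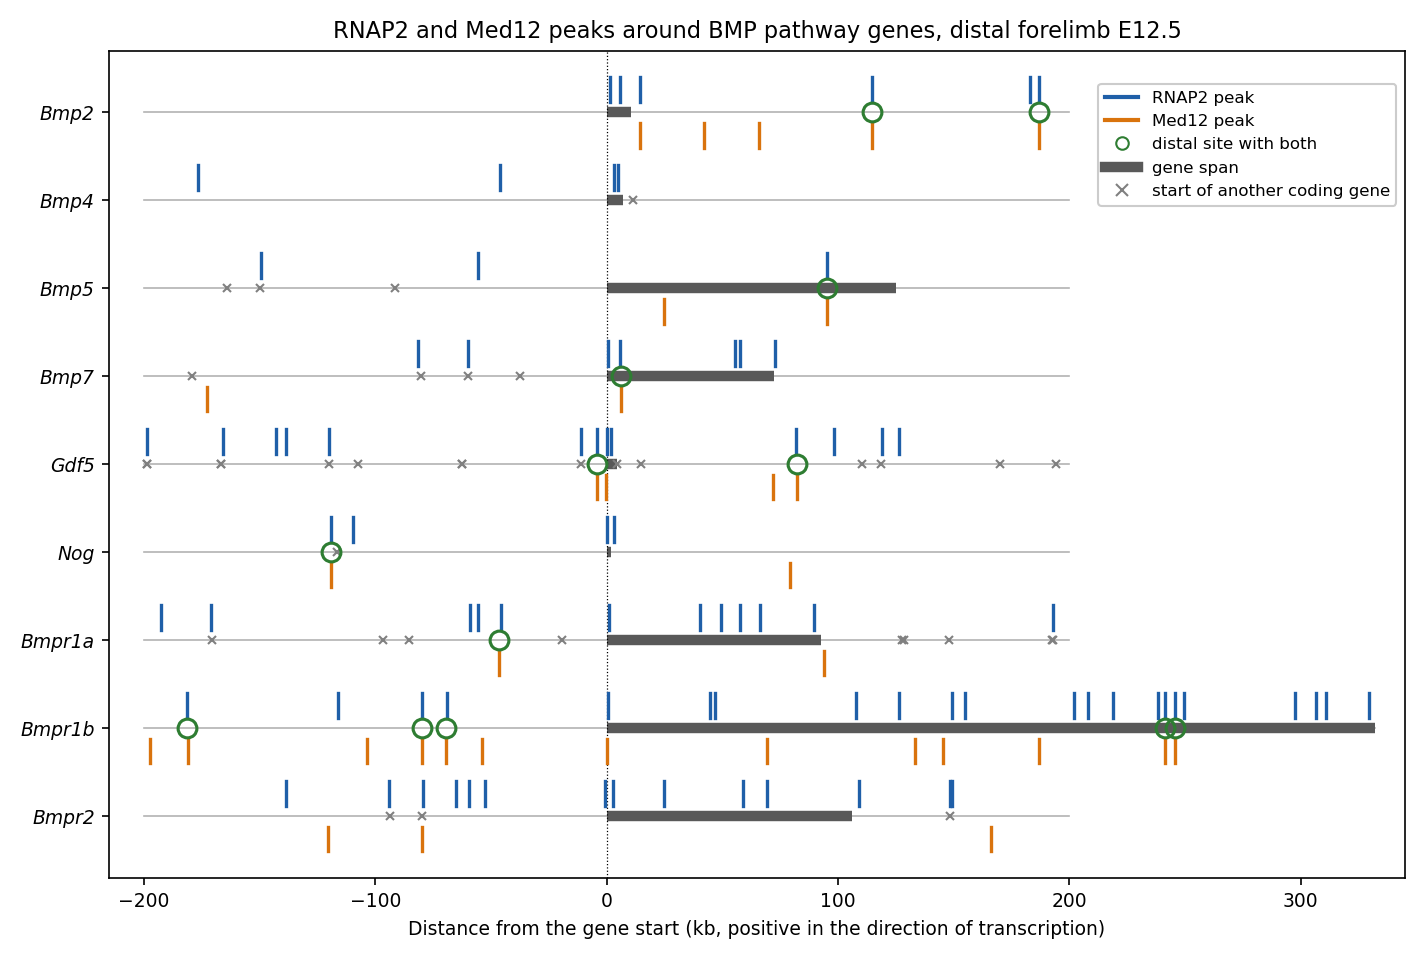
RNAP2 peaks (blue, above each line) and Med12 peaks (orange, below) by distance of their middle from the gene start in kb, positive in the direction of transcription. Dark bars are gene spans, crosses are starts of other coding genes and green circles are the 13 distal sites with both proteins. Bmp4 has no Med12 peak, Bmp2 and Bmpr1b have no other coding start in their windows, and Gdf5 has 15.

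Sites away from starts were examined next, as candidates for regulatory elements. All 9 genes had at least 1 distal RNAP2 peak in their window and 8 had a distal Med12 peak, where 60.4% and 54.7% of coding genes did. Many of these RNAP2 peaks lay inside the BMP gene itself. This held for all 4 of Bmp7, most of the 20 of Bmpr1b, 5 of 9 of Bmpr1a and 4 of 7 of Bmpr2. The share was lower for Bmp2, with 1 of 4, and for Gdf5, with 1 of 6. The lists do not tell polymerase that transcribes a gene from polymerase at a regulatory element. A distal site with both proteins was found for 7 of the 9, and for 22.8% of coding genes. There were 13 such sites, with 5 for Bmpr1b, 2 each for Bmp2 and Gdf5, and 1 each for Bmp5, Bmp7, Nog and Bmpr1a. Bmp4 and Bmpr2 had none. The median was 1 per BMP gene and 0 per coding gene. The window of Bmpr1b was longer than the others, at 532.3 kb against 400.0 kb, since the gene itself extends beyond 200 kb.

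**Figure D3:**
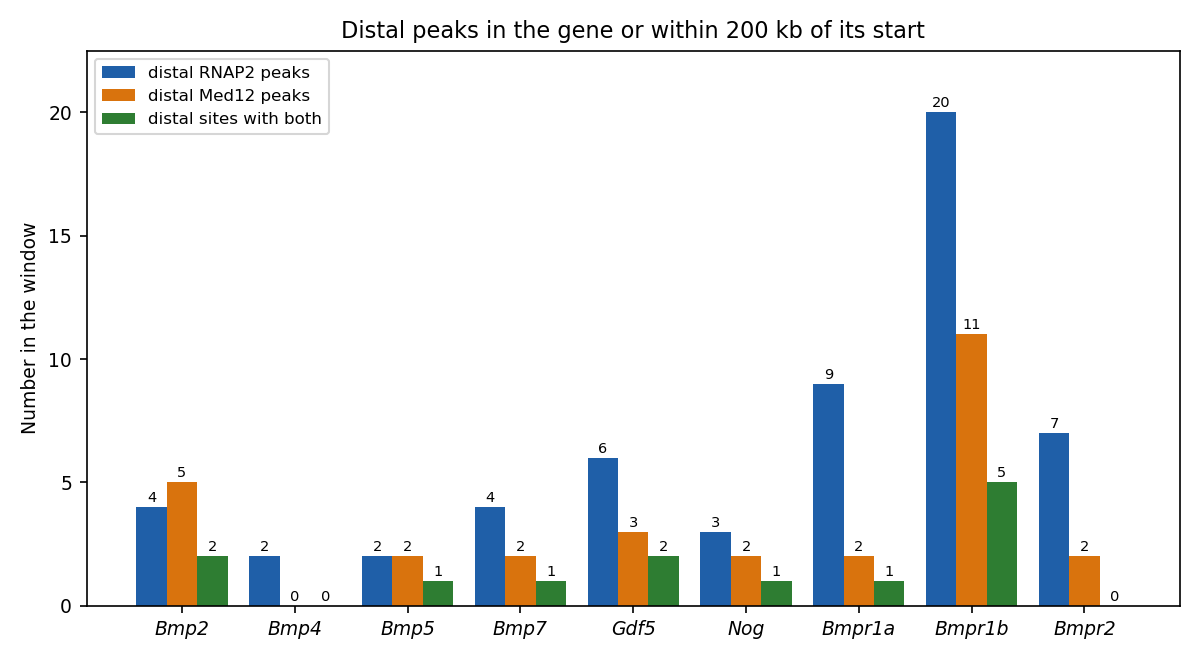
Number of distal RNAP2 peaks (blue), distal Med12 peaks (orange) and distal sites with both (green) in the window of each gene. Bmpr1b has the highest count of each kind, with 20, 11 and 5, while Bmp4 has 2 RNAP2 peaks and no Med12 peak.

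The sites were spread on both sides of the genes, 6 upstream of the start, 4 inside the gene and 3 downstream of its end, at distances of 4.3 to 245.6 kb from the start with a median of 95.1 kb. The gene with the nearest coding start was the BMP gene itself at 9 sites and another gene at 4. The overlap of the peaks lay between genes at 4 sites, in introns at 7 and touched an exon at 2. Peak lists do not show which gene a site acts on. The median scores of the 13 sites were 135.84 for RNAP2 and 79.2 for Med12, beside 136.62 and 90.2 for all 2666 distal sites with both proteins, so that neither median was above that of all sites.

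**Figure D4:**
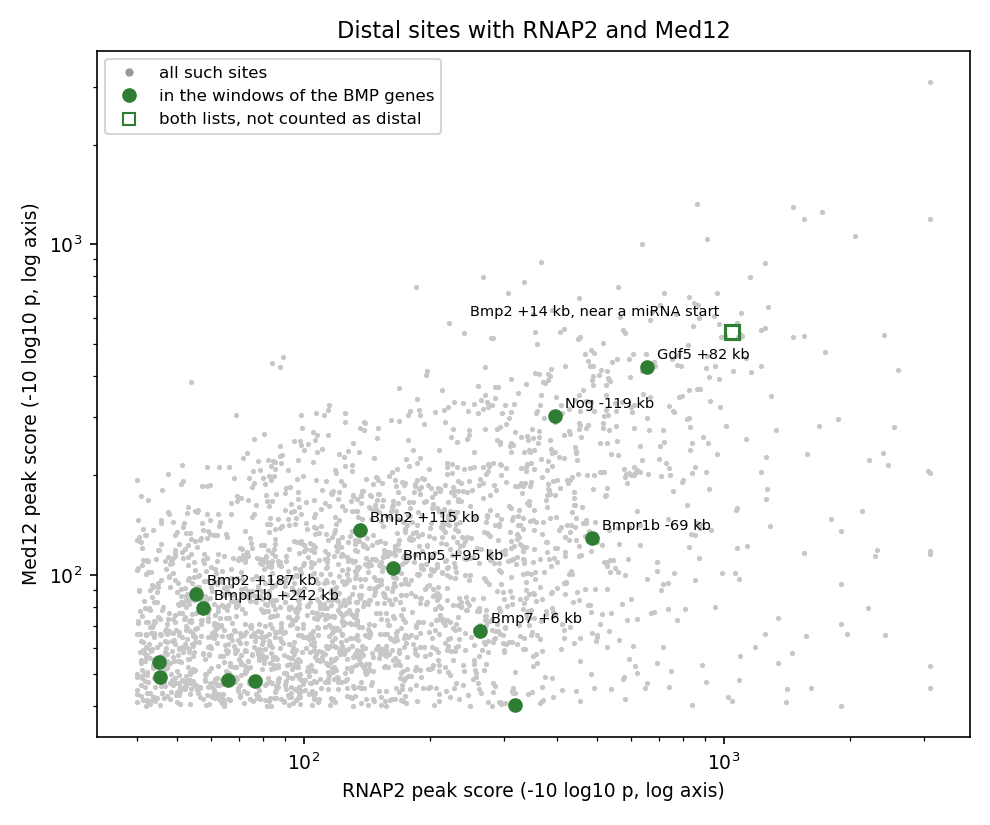
RNAP2 score against Med12 score, both on log axes, for all 2666 distal sites with both proteins (grey) and for the 13 in the windows of the BMP genes (green, named where the Med12 score is at least 60). The Gdf5 site 82.1 kb from its start and the Nog site lie towards the upper right, and the open square is the Bmp2 site close to a miRNA start.

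Among the 13 sites, the highest scores in both lists belonged to a site of Gdf5. It lies 82.1 kb downstream of the Gdf5 start, in an intron of Uqcc, where an RNAP2 peak of score 656 from 155688281 to 155689867 covers a Med12 peak of score 425 from 155688367 to 155689664. Of all distal sites with both proteins, 6.71% had as high an RNAP2 score and 3.38% as high a Med12 score. The nearest coding start was that of Fam83c, 28425 bp away. A Med12 peak without RNAP2 lay in the same gene, 72.1 kb from the Gdf5 start, with a score of 122. The other site with both proteins was 4.3 kb upstream of the start, between genes, with lower scores of 45.2 for RNAP2 and 54.5 for Med12.

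For Bmp2, the strongest signal in the window lay just beyond the gene. An RNAP2 peak of score 1045, above the 444 at the start itself, lay from 133391223 to 133393142 and began 2601 bp after the annotated end of Bmp2. A Med12 peak of score 542, from 133391509 to 133393370, shared 1634 bp with it. The Med12 peak ranked 56 of 10634 in its list. The annotation places the start of a miRNA, AL831753.1, 779 bp before the RNAP2 peak, and for this reason the RNAP2 peak did not count as distal, although the Med12 peak, 1065 bp from that start, did. When starts of protein-coding transcripts alone were considered, both did, and Bmp2 then had 3 sites. The 2 sites that met the definition lay farther out in the same direction, 114.6 kb and 187.1 kb from the start. The nearer one scored 135.84 for RNAP2 and 137 for Med12, and the farther one 55.5 and 87.8. No other coding gene starts in this window. Between these sites and the gene, Med12 peaks at 41.9 kb and 66.0 kb, with scores of 59.4 and 43.0, had no RNAP2 peak, and nothing was listed for the 200 kb upstream of Bmp2 beyond the peak at its start.

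The distal site of Nog lay 119.0 kb upstream, where an RNAP2 peak of score 396 from 89281931 to 89283791 overlapped a Med12 peak of score 302 from 89281954 to 89284294. A higher or equal Med12 score was found at 7.46% of distal sites with both proteins. The overlap touched an exon of Ankfn1, and the RNAP2 peak came within 1669 bp of the start of 4932411E22Rik. With 5 kb around starts the site was therefore no longer distal, and Nog had none. The same held for the site of Bmp7 described next.

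In the other ligand genes the sites were intronic. In Bmp7, RNAP2 scored 263 in a peak from 172758928 to 172761104, which overlapped a Med12 peak with a score of 67.7 at 6.3 kb from the start. Bmp5, which had no peak at its start, had RNAP2 (score 163) from 75717660 to 75718862 and Med12 (score 105) from 75717768 to 75718797, at 95.1 kb from the start. Further peaks of Bmp7 were found in 1 list alone, RNAP2 at 55.6, 57.6 and 72.6 kb in the direction of transcription, with scores of 47.3, 103 and 75.7, and Med12 at 172.8 kb upstream, with a score of 59.2. Beside its intronic site, the Bmp5 window held 1 distal peak of each list. For Bmp4, the distal RNAP2 peaks were the second of those inside the gene and one 176.5 kb upstream with a score of 40.2, close to the lowest in the list. A further RNAP2 peak with a score of 60.8 lay at the start of the lincRNA Gm15221, 46.2 kb upstream.

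Of the receptor genes, Bmpr1b had most sites. The highest in score lay 69.2 kb upstream between genes, where an RNAP2 peak of score 486 from 141900391 to 141902608 covered a Med12 peak of score 129 from 141900919 to 141902351. The other 4 were weaker, with RNAP2 scores from 45.3 to 76.5 and Med12 scores from 47.6 to 79.2. They lay 79.6 kb and 181.2 kb upstream, in Pdlim5, and 241.5 kb and 245.6 kb downstream of the start, in introns of Bmpr1b. The highest distal Med12 score of the window, 159, belonged to a peak inside the gene at 69.5 kb from the start, with no RNAP2 peak. As many distal sites with both proteins as Bmpr1b had were found in the windows of 0.519% of coding genes. This share was not matched for window length, which was 532.3 kb for Bmpr1b. Its sites at 241.5 kb and 245.6 kb lay beyond 200 kb from the start and counted only because the gene extends that far. When a score of at least 100 was required in both lists, Bmpr1b kept 1 site, as did Bmp2, Bmp5, Gdf5 and Nog, and 8.90% of coding genes then had such a site.

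Bmpr1a had 9 distal RNAP2 peaks and 1 site with both proteins, 46.6 kb upstream in an intron of Ldb3, where an RNAP2 peak with a score of 318 and a Med12 peak with a score of 40.3 shared 221 bp at their edges. This Med12 score is among the lowest of all such sites, 99.6% of which reached it, and the site was lost when the overlap had to cover 50% of the shorter peak. Bmpr2 had 7 distal RNAP2 peaks, with scores from 44.2 to 123, and 2 distal Med12 peaks, with scores of 40.8 and 46.3, none of which overlapped. Both proteins met in its window at the start of Nop58, 79.7 kb upstream, with scores of 2289 and 40.4.

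The rest of the pathway was followed through a list of 28 genes, of which 14 had RNAP2 at the start, 2 had Med12 and 11 had a distal site with both proteins. The shares of all coding genes are 40.0%, 8.20% and 22.8%, so that for the starts the list lay near what is found for any coding gene. The 4 Smad genes of the list, which does not hold every Smad of the pathway, had RNAP2 at the start, with scores of 1144 for Smad1, 1000 for Smad5, 2106 for Smad9 and 3100 for Smad6. Smad5 and the inhibitory Smad6 were also those with Med12 at the start, with scores of 89.7 and 312. Among the remaining receptor genes RNAP2 lay at 3 of 4 starts, among other ligands at 2 of 8 and among antagonists and other extracellular modulators at 5 of 12. The ligands with a peak were Gdf6, a close relative of Gdf5, with a score of 90.3, and Bmp6, with a score of 41.2. Grem1, a BMP antagonist of the limb bud, had neither protein at its start, and 3 distal Med12 peaks in its window.

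The labelled tissue was checked on marker genes. RNAP2 lay at the starts of all 5 genes listed for limb mesenchyme (Prrx1, Twist1, Msx1, Hoxd13 and Hoxa13) and of both listed for cartilage condensations (Sox9 and Col2a1). It was found at none of the 3 starts listed for limb ectoderm, none of the 3 for blood and endothelium and none of the 3 for neurons. Only the most upstream annotated start of each marker was examined, so a peak at an internal start was not counted. Of the 3 muscle genes, Pax3 had a peak, with a score of 283. In a mixed tissue, a weak peak in all cells and a strong one in few of them cannot be told apart.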

How the data were processed

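RNAP2, Med12 and input chromatin from distal forelimbs at E12.5 were sequenced in 1 library each, and the RNAP2 and Med12 peak lists were used. Reads, trimmed at their first base, were mapped to mm9 by the authors with Bowtie, and peaks were called by MACS 1.4.1 once duplicates had been removed. Whether the input served as control is not given in the sources used here. The deposited value of a peak is a score, 10 times the negative log10 of the caller's p-value, and the lists reach down to 40, below the equivalent of the threshold in the study's methods, 50. The lists hold no read counts, so the depth at a peak is unknown and no counting interval could be given.

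Genes and starts were those of GENCODE vM1 for the same assembly (NCBIM37), and all peaks fell within its chromosomes. A gene's start is its most upstream annotated start. Windows included the gene and 200 kb on each side of its start, and overlap meant at least 1 bp. Counts were made with Python 3.11.15, checked on planted peaks and, for the overlap, against bedtools 2.31.1. Plots were drawn with matplotlib 3.10.9. As no test was possible, counts over the BMP genes are set beside the share of all protein-coding genes. Genes of the pathway, markers, motifs and alternatives were listed, and sites were named by rule (nearest, farthest and highest in each list), with earlier results of these data known. The Bmp2 site near a miRNA, single peaks without the other protein, and the named pathway genes other than Smads were picked with their values in view.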

Additional observations from a re-analysis of the deposited data

How the results depend on the processing

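No paired analysis was possible because there was a single library per antibody. The 6 totals over the BMP genes were recomputed under 9 alternatives, which gave 32 values, of which 22 stayed within 1.5 times the reported count. A score of at least 100 left 1 gene with Med12 at the start and the same 1 with both proteins (Gdf5), beside 2.03% and 1.92% of coding genes, and it left 14 distal RNAP2 peaks, 8 distal Med12 peaks and 5 distal sites with both. A score of at least 50 left 17 distal Med12 peaks and 8 sites with both. Windows of 500 kb held 97 distal RNAP2 peaks, 56 distal Med12 peaks and 28 sites with both, among them 3 for Bmp4 and 2 for Bmpr2, which had none within 200 kb. All 9 genes then had such a site, as did 46.4% of coding genes, against 22.8% at 200 kb. With windows of 100 kb, 9 sites with both were left. They belonged to 5 of the BMP genes, beside 12.8% of coding genes with such a site. Bmp2 and Nog, which had sites within 200 kb, had none within 100 kb. The number of genes with RNAP2 at the start was 7 or 8 in all alternatives that bear on it. Counts for single genes moved beyond 1.5 times in 70 of 180 values. The peak score minimum limits what can be seen, since weaker binding is not listed.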
